A study of Mus musculus with 11 samples.

Results

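The 9 genes described here make up the IL-23 and IL-17 cytokine axis in the skin and small intestine of mice with imiquimod (IMQ)-induced psoriasis-like dermatitis. They were taken by gene symbol (*Il17a*, *Il17f*, *Il17c*, *Il22*, *Il23a*, *Il12b*, *Il23r*, *Il17ra* and *Il17rc*), and all 9 were found among the 45777 genes of the table. BALB/c mice aged 8 to 10 weeks, female or male, received 62.5 mg of cream daily on shaved skin for 5 to 8 days, either vehicle (Vaseline, control mice) or Aldara with 5% IMQ, a TLR7 ligand (IMQ-treated mice). Bulk RNA was sequenced from 3 control and 3 IMQ-treated skin samples and from 3 control and 2 IMQ-treated small intestine samples. The replicate numbers run through the series (skin control 1 to 3, skin IMQ 4 to 6, small intestine control 7 to 9, small intestine IMQ 10 and 11) and carry no order. No label says which skin and small intestine came from one animal, which mouse was treated for how many days, or that the replicates are separate animals, so the p-values measure the spread between these samples.

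IL-23 is a heterodimer of the p19 subunit, encoded by *Il23a*, and the p40 subunit, encoded by *Il12b*, which IL-12 also contains. It is made mainly by dendritic cells and macrophages and acts on lymphocytes that carry the IL-23 receptor (*Il23r*, paired with *Il12rb1*), among them Th17 cells, γδ T cells and type 3 innate lymphoid cells, which release IL-17A, IL-17F and IL-22. IL-17A and IL-17F signal through a complex of IL-17RA and IL-17RC on epithelial and stromal cells, whereas IL-17C is an epithelial member of the family, and the axis is known for driving psoriatic plaques in skin and for supporting the barrier of the gut.

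The promoters of 3 members are shown first, because they held AGGTCA, the half-site that many nuclear receptors are known to bind, and belong to the members made by or marking type 17 lymphocytes. Of the 9 members, 7 had an entry in the RefSeq promoter table (GRCm38.p6), and *Il23a* and *Il17ra* did not. The 250 bases before the annotated start are printed 5′ to 3′ on the strand of the gene, with AGGTCA or its reverse complement TGACCT in capitals.
*Il17a* (chr1:20730655-20730904, plus strand): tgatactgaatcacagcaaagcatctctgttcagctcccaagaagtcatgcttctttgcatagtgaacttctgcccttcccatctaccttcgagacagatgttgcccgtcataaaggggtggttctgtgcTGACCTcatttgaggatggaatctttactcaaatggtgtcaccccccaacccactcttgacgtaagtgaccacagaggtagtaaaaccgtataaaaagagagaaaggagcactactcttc
*Il17f* (chr1:20784271-20784520, minus strand): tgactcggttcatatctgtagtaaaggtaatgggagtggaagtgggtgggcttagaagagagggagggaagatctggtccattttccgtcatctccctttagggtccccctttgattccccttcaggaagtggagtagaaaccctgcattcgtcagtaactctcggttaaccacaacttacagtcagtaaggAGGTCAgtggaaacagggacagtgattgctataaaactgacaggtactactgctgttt
*Il23r* (chr6:67491856-67492105, minus strand): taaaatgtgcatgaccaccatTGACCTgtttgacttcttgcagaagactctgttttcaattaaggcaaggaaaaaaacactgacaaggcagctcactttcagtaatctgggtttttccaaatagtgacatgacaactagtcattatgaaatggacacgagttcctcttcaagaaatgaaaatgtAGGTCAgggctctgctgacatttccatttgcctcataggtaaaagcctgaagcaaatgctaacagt
The reference genome is that of C57BL/6J and not of BALB/c mice. The first 26 bases of the *Il17f* window lie in an exon of a longer *Il17f* transcript.

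The half-site AGGTCA, searched on both strands, was present in 3 of the 7 windows, which were those of *Il17a*, *Il17f* and *Il23r*, and in 4607 of all 32851 promoter windows of that length. It started 120 bases before the start of *Il17a* and 58 bases before that of *Il17f*, and the *Il23r* window held it at both 229 and 66 bases. An NF-κB motif of 10 bases was found in the windows of *Il23r* and *Il17rc* (1.41% of all windows), the AP-1 motif TGANTCA in that of *Il17a* (6.75% of all windows), and the STAT motif TTCNNNGAA in none of the 7 (7.02% of all windows). The motifs were searched on both strands, and no match in a window says only that these letters are not in it.

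*Il17a* (Entrez Gene 16171, chromosome 1 from 20730905 to 20734496, plus strand) and *Il17f* (257630, chromosome 1 from 20777146 to 20785274, minus strand) are neighbours 42649 bases apart. *Il23r* (209590) spans chromosome 6 from 67422932 to 67491855, *Il17rc* (171095) lies on the same chromosome from 113471455 to 113483163 and *Il17ra* (16172) from 120463181 to 120483731. *Il22* (50929) is on chromosome 10 from 118204584 to 118210047 and *Il23a* (83430) from 128296140 to 128298084, whereas *Il12b* (16160) is on chromosome 11 from 44400063 to 44414677 and *Il17c* (234836) on chromosome 8 from 122422020 to 122423639. No exon of a member overlapped an exon of another gene on either strand in the GENCODE vM21 annotation.

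The 11 libraries held 44995414 to 58526384 counts. Skin libraries carried *Krt14* at 1044 to 4112 FPKM (sequenced fragments scaled to transcript length and library depth), against at most 0.365 in the small intestine, and the summed enterocyte markers were 9874 to 19804 FPKM in the small intestine. Skin control replicate 2 stood apart: its summed enterocyte markers were 200 FPKM, against 0.0412 and 0.0893 in control replicates 1 and 3, and its summed hair follicle markers were 1.07 FPKM, against 553 and 920. The IMQ-treated skin had hair follicle sums of 1.71 to 2.63 FPKM. The tests of the members and the counts over gene lists in skin are therefore also given without control replicate 2. In that fit the remaining controls had high hair follicle sums and every IMQ library a low one. Treatment and hair follicle content cannot be told apart there, and all 4 hair follicle markers tested were called lower. Calls gained in that fit carry this limit.

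**Figure D1:**
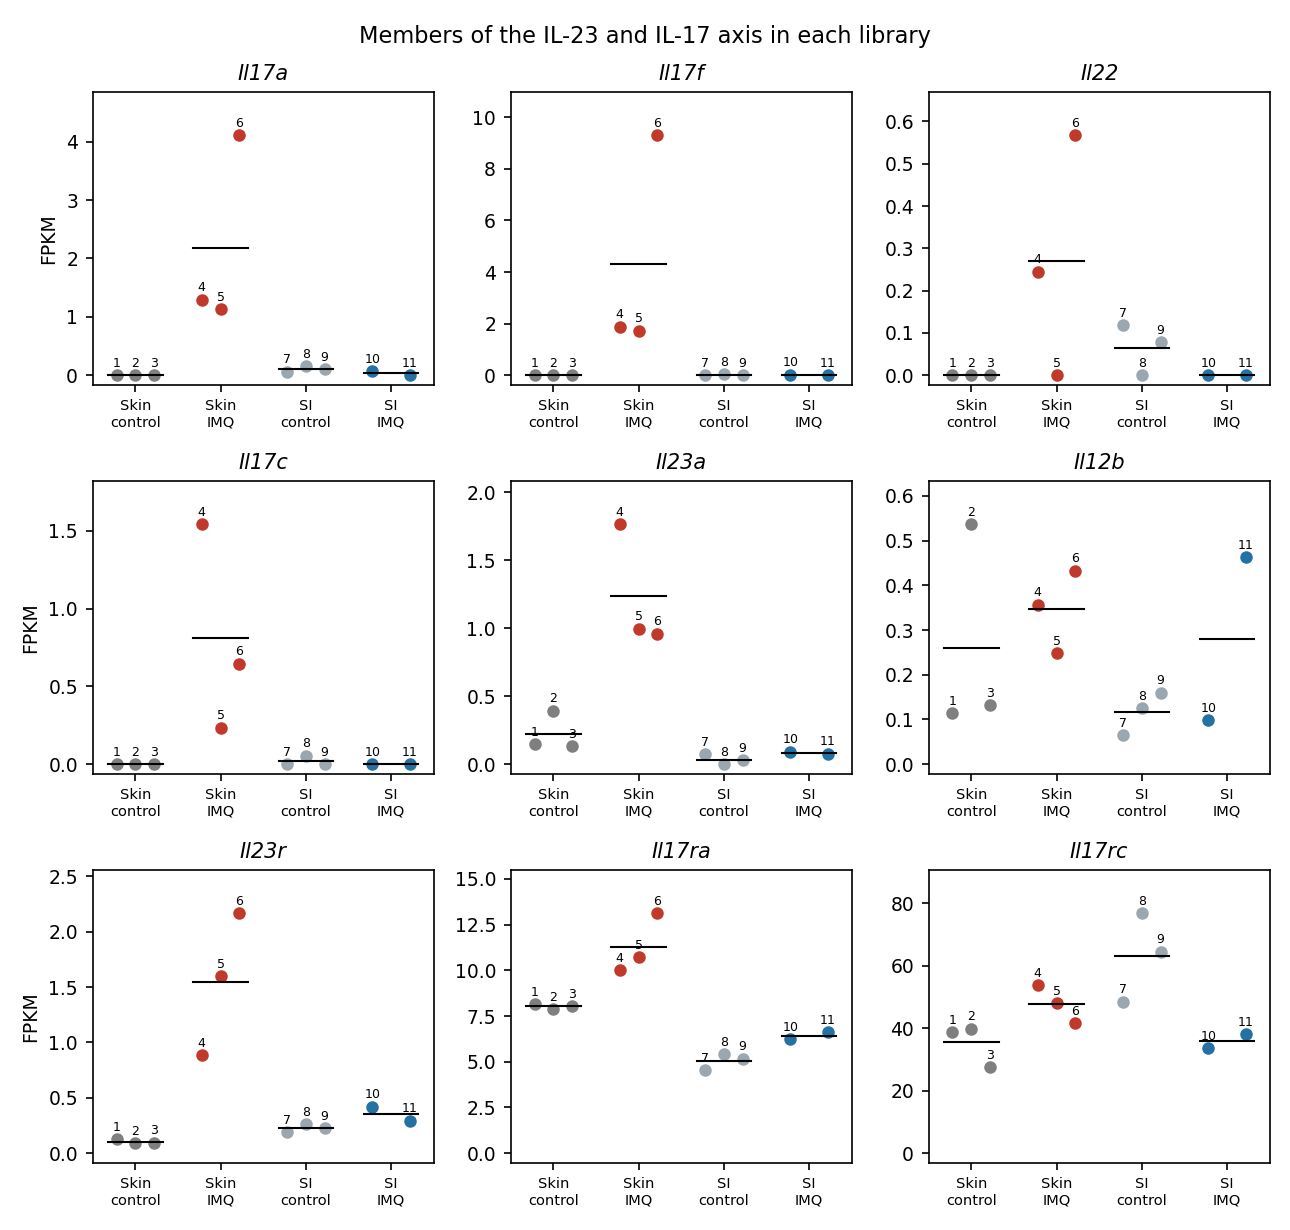
FPKM of each of the 9 members (vertical axes, linear and separate for each gene) in the 11 libraries, grouped as control and IMQ skin and control and IMQ small intestine (SI), where points are libraries labelled with their replicate number and bars are group means. *Il17a*, *Il17f* and *Il17c* are at 0 in all 3 control skin libraries and above 0 in all 3 IMQ skin libraries, and *Il12b* is highest in skin control replicate 2.

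The skin of IMQ-treated mice expressed more of the IL-23 p19 gene, of the IL-23 receptor gene and of *Il17a* and *Il17f* than control skin, whereas the shared p40 gene did not pass the test. Genes with at least 1 count in every skin library were tested by edgeR's quasi-likelihood test, and a gene was called at a Benjamini-Hochberg adjusted p under 0.05. Of the 9 members, 5 could be tested in this way, and 3 of them (*Il23a*, *Il23r* and *Il17ra*) were called, all higher, where 6.74% of all 20512 genes tested were called. Without control replicate 2, 4 of the same 5 members were called (12.1% of all genes). The 4 members left out, *Il17a*, *Il17f*, *Il17c* and *Il22*, had 0 counts in every control skin library.

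*Il23a* had 12, 28 and 11 counts in control replicates 1 to 3 and 126, 73 and 66 counts in IMQ replicates 4 to 6. All 3 IMQ libraries were above all 3 controls, as for 4 of the 5 members tested and for 15.1% of all genes tested. Normalized for library size, *Il23a* rose from 16.99 ± 11.7 to 94.2 ± 37.7 counts (SD, n = 3 each), and the log2 fold change was 2.49 (standard error 0.53, adjusted p = 0.0403). The call depended on single libraries. With control replicate 2 left out the log2 fold change was 3.19 (adjusted p = 0.0128), whereas the adjusted p was 0.145 without control replicate 1, 0.0912 without control replicate 3, and 0.114, 0.114 and 0.0747 without IMQ replicates 4, 5 and 6.

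*Il12b* had 17, 70 and 20 counts in control skin and 47, 34 and 55 in IMQ skin, so that the groups overlapped through control replicate 2, the highest of the 6 libraries. The log2 fold change was 0.43 (standard error 0.63, adjusted p = 0.743). Without control replicate 2 it was 1.55 (standard error 0.33, adjusted p = 0.0372), and *Il12b* was not called in any of the other 5 fits that left out 1 library. The level of *Il12b* in that replicate was 0.537 FPKM, beside 0.0655 to 0.160 in control and 0.0980 and 0.463 FPKM in IMQ small intestine libraries. The source of the high value in that replicate was not tested.

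The balance of the IL-23 subunits can be read within a library. The ratio of *Il23a* to *Il12b* in FPKM was 1.31, 0.732 and 1.01 in control skin and 4.94, 4.02 and 2.21 in IMQ skin, with no overlap between the groups. How often ratios of other gene pairs do not overlap was not computed, so this only describes these libraries. In the small intestine the ratio ranged from 0 to 1.11 in control and was 0.946 and 0.168 in IMQ libraries, all resting on at most 8 counts of *Il23a*.

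**Figure D2:**
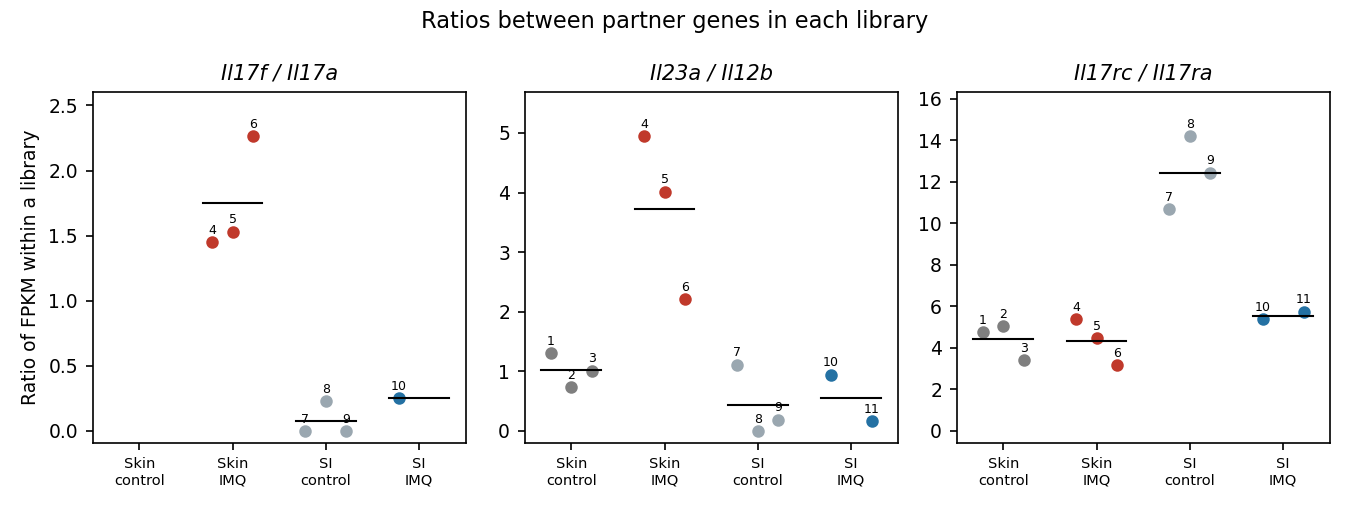
Ratio of FPKM within each library (vertical axes, linear) for *Il17f* over *Il17a*, *Il23a* over *Il12b* and *Il17rc* over *Il17ra*, with points labelled by replicate number and bars at group means. The *Il17f* to *Il17a* ratio is not drawn where *Il17a* is at 0, the *Il23a* to *Il12b* ratio is highest in IMQ skin (2.21 to 4.94), and the *Il17rc* to *Il17ra* ratio is 10.7 to 14.2 in control small intestine and 5.37 and 5.75 after IMQ.

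*Il23r*, the chain that gives the IL-23 receptor its specificity, showed the largest log2 fold change of the 5 members tested in skin. It had 18, 12 and 15 counts in control skin and 116, 213 and 273 counts in IMQ skin. Each IMQ library held at least 6 times the count of any control library, and replicate 6 was the highest. The log2 fold change was 3.89 (standard error 0.39, adjusted p = 0.00432), and it lay between 3.60 and 4.16 with a call in all 6 fits that left out 1 library.

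*Il17a* was at 0 counts in all 3 control skin libraries and had 80, 71 and 243 counts in IMQ skin. *Il17f*, its closest relative and its partner in the IL-17A/F heterodimer, was likewise at 0 in control skin and had 118, 111 and 554 counts in IMQ skin. Both cytokines were highest in IMQ replicate 6, and replicates 4 and 5 were close to each other. A count of 0 still allows up to 3 counts in a library, so against that floor in each control library *Il17a* was at least 48.6-fold and *Il17f* at least 96.6-fold higher in IMQ skin. Without IMQ replicate 6 these bounds were 27.98-fold and 42.4-fold.

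Among genes kept by the filterByExpr filter of edgeR, which tolerates a group at 0, *Il17a* (adjusted p = 0.0177) and *Il17f* (adjusted p = 0.0254) were called, where 7.84% of all genes kept were called. Both passed this filter through the IMQ libraries alone, so no count over the members kept is drawn from it. Fitted fold changes of such genes depend on the prior count and are not given. Without control replicate 2 both stayed called (adjusted p = 0.0158 for *Il17a* and 0.0249 for *Il17f*). Neither was called without control replicate 1 (adjusted p = 0.0529 and 0.0708), IMQ replicate 4 (0.0546 and 0.0635) or IMQ replicate 5 (0.0570 and 0.0680). The Wald test of DESeq2 on the same genes called both.

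In every IMQ skin library *Il17f* was above *Il17a* per length, with ratios of FPKM of 1.45, 1.53 and 2.26. Their mean levels were 4.30 ± 4.33 and 2.18 ± 1.68 FPKM (SD, n = 3), so the difference between the means was smaller than the spread between replicates. The 100-base windows of the *Il17a* transcript had no exact copy in that of *Il17f*, so reads of that length could be told apart.

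*Il17c*, which epithelial cells make, was at 0 in control skin and had 59, 10 and 24 counts in IMQ skin, at least 11.7-fold higher against the floor of 3 counts (6.23-fold without IMQ replicate 4). Its order over the libraries differed from that of *Il17a* and *Il17f*, with replicate 4 the highest. With no filter on low counts, *Il17c* missed the threshold (adjusted p = 0.0505), and 3 of the 9 members (*Il23r*, *Il17a* and *Il17f*) were called, against 3.74% of all genes. Of the 6 fits on filterByExpr genes that left out 1 library, the fit without control replicate 2 alone called *Il17c* (adjusted p = 0.0437).

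*Il22*, which acts on keratinocytes and gut epithelium, was at 0 in control skin and had 14, 0 and 32 counts in IMQ skin, so that IMQ replicate 5 was at 0 like the controls. The mean was at least 5.72-fold higher against the floor (2.67-fold without IMQ replicate 6 and 8.59-fold without IMQ replicate 5). The test without a filter did not call it (adjusted p = 0.194), nor did the fit on filterByExpr genes without control replicate 2 (adjusted p = 0.158). *Iltifb*, a near-identical copy of *Il22* on the same chromosome, had 3, 0 and 10 counts in IMQ skin and 0 in all other libraries. The 2 transcripts were 97.3% identical, and 20.4% of the 100-base windows of each had an exact copy in the other, so the division of reads between them is uncertain. Summed over both genes, the IMQ skin libraries had 17, 0 and 42 counts.

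The IL-17 receptor chains *Il17rc* and *Il17ra* were the most abundant members per length in every group. *Il17ra*, the chain shared by the IL-17 receptors, was at 8.16, 7.89 and 8.05 FPKM in control skin and at 10.0, 10.7 and 13.1 FPKM in IMQ skin. The groups did not overlap, and the log2 fold change was 0.54 (standard error 0.12, adjusted p = 0.0428). The call was kept without control replicate 2 (adjusted p = 0.0401) and lost without control replicate 1 (0.158) or 3 (0.0960) and without IMQ replicate 4 (0.0864), 5 (0.140) or 6 (0.0899).

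*Il17rc*, which pairs with IL-17RA to bind IL-17A and IL-17F, was at 38.8, 39.8 and 27.6 FPKM in control skin and at 53.8, 47.9 and 41.5 FPKM in IMQ skin. The groups did not overlap, but the change did not pass the test (log2 fold change 0.49, standard error 0.20, adjusted p = 0.205), nor did it in any of the 6 fits that left out 1 library.

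In the small intestine none of the 4 members tested was called by edgeR, where 2.95% of all 19965 genes were called. *Il17ra* and *Il17rc*, 2 of the 4, passed an unadjusted p under 0.05, and the Wald test of DESeq2 called *Il17rc* alone (adjusted p = 0.0137). *Il17a*, *Il17f*, *Il17c*, *Il22* and *Il23a* had at most 11 counts in any small intestine library, whereas *Il12b* had up to 65.

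*Il17rc* was at 48.5, 76.7 and 64.4 FPKM in control small intestine and at 33.5 and 38.0 FPKM in IMQ small intestine. Both IMQ libraries were below all 3 controls, as for 13.9% of all genes tested. The log2 fold change was -0.77 (standard error 0.20, adjusted p = 0.126), and without control replicate 7, the lowest of the controls, it was -0.92 (adjusted p = 0.0298).

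*Il17ra* went the other way, from 4.54, 5.41 and 5.18 FPKM to 6.24 and 6.61 FPKM, and both IMQ libraries were above all 3 controls. The change, 0.40 on the log2 scale (standard error 0.14, adjusted p = 0.267), did not pass the test. Within a library the ratio of *Il17rc* to *Il17ra* was 10.7, 14.2 and 12.4 in control small intestine and 5.37 and 5.75 in IMQ small intestine, with no overlap. This ratio combines the changes of both genes, of which edgeR called neither. How often ratios of other gene pairs do not overlap was not computed, so it only describes these libraries. In skin the ratio overlapped between the groups, at 3.43 to 5.05 in control and 3.16 to 5.38 in IMQ libraries.

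*Il23r* had 26, 36 and 37 counts in control small intestine and 67 and 41 counts in IMQ small intestine. Both IMQ libraries were above the controls, as for *Il17ra*, which makes 2 of the 4 members tested against 15.1% of all genes tested. The log2 fold change of *Il23r* was 0.69 (standard error 0.31, adjusted p = 0.444).

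*Il12b* had 9, 17 and 27 counts in control small intestine and 16 and 65 in IMQ small intestine, so the groups overlapped. Its log2 fold change was 1.29 (standard error 0.68, adjusted p = 0.534), and without IMQ replicate 11 it was -0.26. *Il23a* had 6, 0 and 3 counts in control and 8 and 6 counts in IMQ small intestine.

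*Il17a* was detected in all 3 control small intestine libraries, at 4, 11 and 9 counts, and in 1 of the 2 IMQ libraries, at 5 and 0 counts. *Il22* had 7, 0 and 6 counts in control and 0 in both IMQ libraries. *Il17f* (0, 4 and 0 counts in control, 3 and 0 after IMQ) and *Il17c* (0, 3 and 0 in control, 0 in both IMQ libraries) were at or near 0. With no filter on low counts none of these 4 members or *Il23a* was called (adjusted p of 0.583 to 0.998, where 2.25% of all genes were called).

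**Figure D3:**
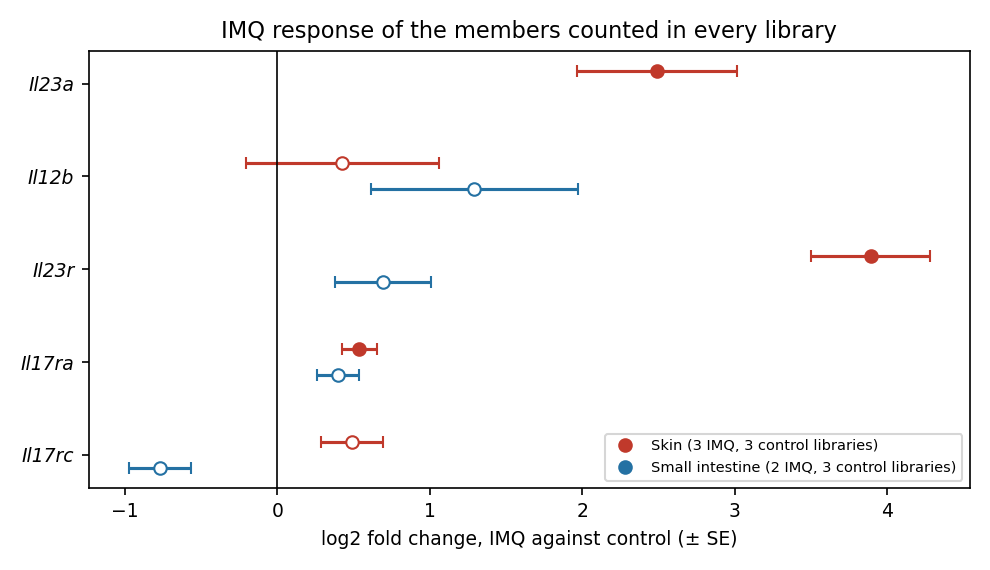
log2 fold change of IMQ against control (horizontal axis, with standard error bars) for the members with a count in every library of the tissue, in skin and in small intestine, where filled points were called at an adjusted p under 0.05. *Il23a*, *Il23r* and *Il17ra* are filled in skin, no member is filled in small intestine, and *Il23a* has no small intestine point because 1 control library had 0 counts.

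To ask whether the response differed between the tissues, the interaction of tissue and treatment was tested in 1 model of all 11 libraries. Of the 4 members tested, *Il23r* was called, with a response lower by -3.19 on the log2 scale in small intestine than in skin (standard error 0.49, adjusted p = 0.00829), where 2.55% of all 18108 genes were called. The call was kept in all 11 fits that left out 1 library, with values from -3.46 to -2.90. For *Il17rc* the responses had opposite signs and their difference of -1.25 (standard error 0.32, adjusted p = 0.0682) was not called, except without skin control replicate 2 (-1.41, adjusted p = 0.0288), without small intestine control replicate 7 (-1.39, adjusted p = 0.0499) and by DESeq2. The responses of *Il17ra* (-0.13, adjusted p = 0.780) and *Il12b* (0.88, adjusted p = 0.743) were not shown to differ. Among genes kept by filterByExpr, the same test gave *Il17a* an adjusted p of 0.0233 (1.61% of all genes were called), *Il17f* 0.178, *Il17c* 0.187 and *Il22* 0.205. All 4 were at 0 counts in control skin and had their largest counts in IMQ skin. Their fitted difference depends on the prior count, so no further tissue difference is drawn from this fit.

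Between the control tissues, *Il23r* and *Il17rc* were higher in the small intestine than in skin, and 51.9% of all 18890 genes tested differed between these tissues. *Il23r* was at 0.193, 0.262 and 0.226 FPKM in control small intestine and at 0.125, 0.0929 and 0.0960 FPKM in control skin, a log2 difference of 1.55 (standard error 0.26, adjusted p = 0.00154). For *Il17rc* the log2 difference was 1.29 (standard error 0.22, adjusted p = 0.00197). Both stayed called without skin control replicate 2, at 1.51 and 1.43. *Il17ra* (-0.22, adjusted p = 0.181) and *Il12b* (-0.71, adjusted p = 0.432) were not called. *Il17a*, with 4 to 11 counts in control small intestine and 0 in control skin, was called higher in the small intestine with no filter (adjusted p = 0.0116, where 39.7% of all genes were called). The scale mattered for this comparison of tissues: of the genes called, 4947 were higher and 4851 lower in small intestine on normalized counts, against 3164 higher and 7834 lower by limma on log2(FPKM + 0.1), where the median of all genes was -0.38. On that scale *Il23r* (0.67, adjusted p = 0.00786) and *Il17rc* (0.83, adjusted p = 0.0128) were still called higher, and *Il17ra* was called lower (-0.67, adjusted p = 0.00486).

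Ordered per length, the members had the IL-17 receptor chains at the top, and *Il23r* stood among the cytokine genes. *Il17rc* was first and *Il17ra* second in every group, with no overlap between them or between *Il17ra* and the next member. In control skin *Il12b* (0.261 ± 0.239 FPKM, SD) and *Il23a* (0.225 ± 0.146) followed and overlapped, then *Il23r* (0.105 ± 0.0176), and 4 cytokine genes were at 0. In IMQ skin *Il17f*, *Il17a*, *Il23r* (1.55 ± 0.643), *Il23a* (1.24 ± 0.455), *Il17c* (0.808 ± 0.669), *Il12b* (0.346 ± 0.0929) and *Il22* (0.271 ± 0.285) followed in that order of means, and each overlapped its neighbour. In control small intestine *Il23r* (0.227 ± 0.0348 FPKM) came next without overlap, ahead of *Il12b*, *Il17a*, *Il22*, *Il23a*, *Il17c* and *Il17f*, which overlapped from one to the next.

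Around the members, 83 further genes of the pathway in 12 lists were examined, of which 82 were in the table. In skin 69 of them were tested, and 24 were called higher and 1 lower (28 higher and 1 lower without control replicate 2), the median over the tested genes being 0.49 on the log2 scale against -0.01 over all genes. In the small intestine 61 were tested, and 6 were called higher and 0 lower, with a median of 0.16 against -0.02. With 1 library left out in turn, the number called higher ranged from 13 to 28 in skin and from 3 to 6 in small intestine. Of all genes tested, 6.74% were called in skin (12.1% without control replicate 2) and 2.95% in small intestine. These shares apply to the counts over lists and markers below. Of the 24 genes called higher in skin, 8 were IL-17 target genes and 5 were IL-22 target genes. All lists were chosen with earlier results of these data known. These totals, and those of the interaction test below, are therefore no independent evidence about the pathway. A single call in a short list is not read as a result about that list.

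**Figure D4:**
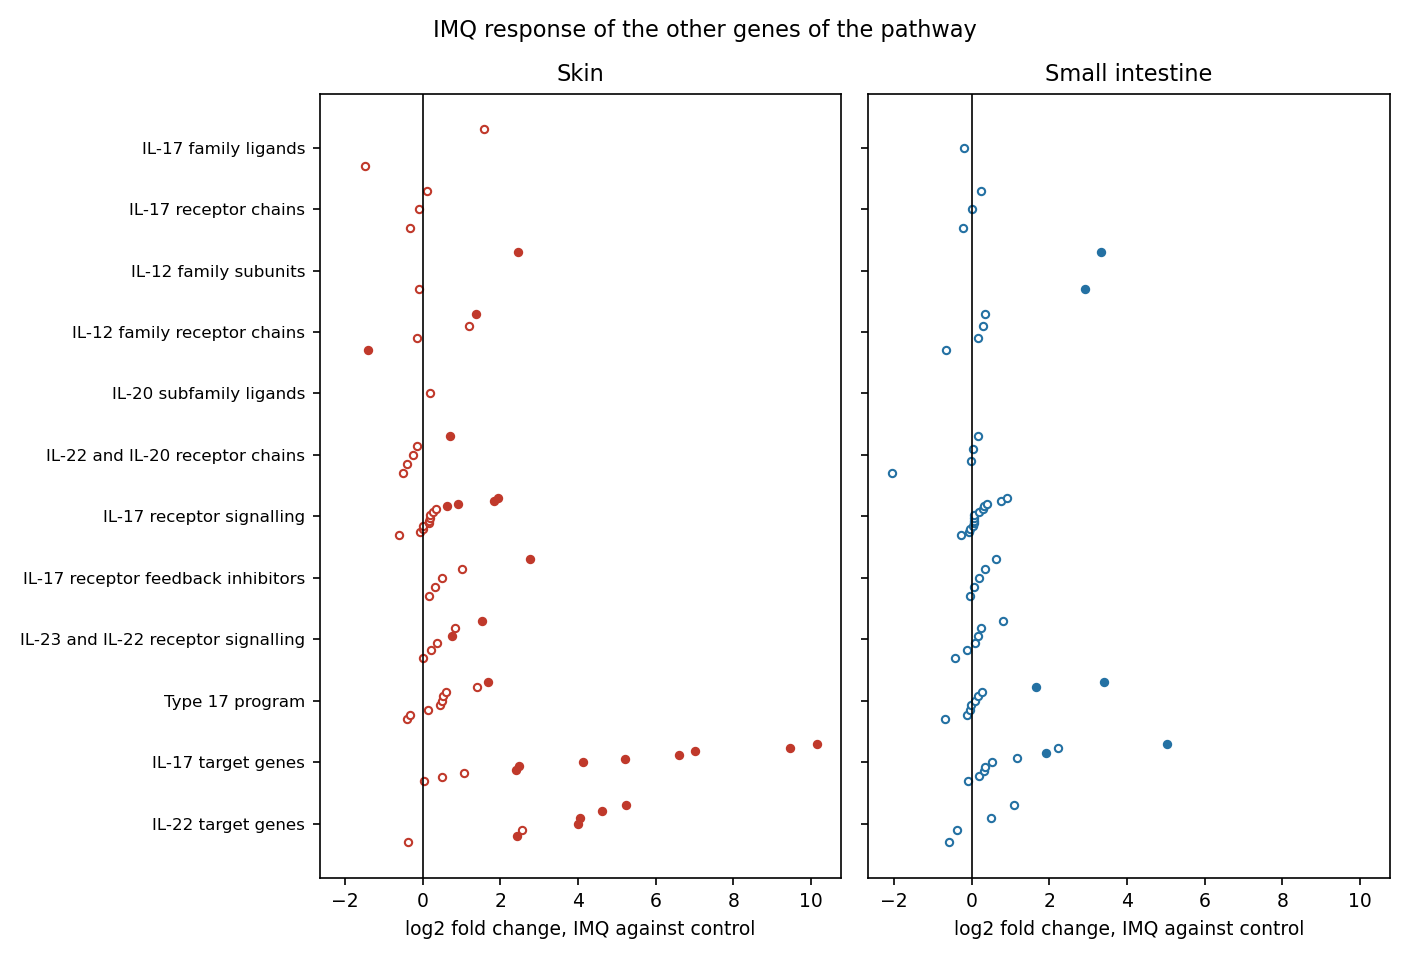
log2 fold change of IMQ against control (horizontal axes) for the tested genes of 12 pathway lists (rows) in skin and small intestine, where each point is 1 gene, filled where called at an adjusted p under 0.05. The rows of IL-17 and IL-22 target genes reach log2 fold changes of 10.16 and 5.24 in skin, and their highest small intestine value is 5.02 for *Saa3*.

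Of the ligands, the other IL-17 family genes *Il17b*, *Il17d* and *Il25* gave 0 calls in either tissue by edgeR. In skin 2 of 2 tested passed an unadjusted p under 0.05 and were called by DESeq2, namely *Il17b* (1.58, adjusted p = 0.0790 by edgeR) and *Il17d* (-1.49, adjusted p = 0.0746 by edgeR), and in small intestine 0 of 1 tested did so. Among the other IL-12 family subunits, *Ebi3*, which pairs with the IL-27 p28 subunit, rose in skin by 2.46 (standard error 0.30, adjusted p = 0.00799) and in small intestine by 2.93 (standard error 0.28, adjusted p = 0.00171) on the log2 scale. *Il27*, which encodes p28, was called in the small intestine, from 0.259, 0.0673 and 0.164 to 1.94 and 1.83 FPKM (log2 fold change 3.32, standard error 0.44, adjusted p = 0.00767), and the call was lost in 1 of 5 fits with a library removed. *Il12a*, which encodes the IL-12 p35 subunit, was not called in skin (-0.10, adjusted p = 0.933).

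Of the IL-20 subfamily, the relatives of IL-22 that also act on keratinocytes, *Il20* alone could be tested in skin and was not called (adjusted p = 0.926), although it was called without control replicate 2. *Il19* and *Il24*, singled out after their values were seen, went from 7, 0 and 0 to 338, 955 and 510 counts and from 0 in all controls to 103, 138 and 34 counts in skin. *Il19* had 4 counts in 1 control small intestine library, and *Il19* and *Il24* were otherwise at 0 in that tissue.

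Among receptor chains, *Il12rb1*, the partner of IL-23R, was called higher in skin (1.37, standard error 0.30, adjusted p = 0.0447), but in none of the 6 fits that left out 1 library. *Il12rb2*, the second chain of the IL-12 receptor, was called lower (-1.42, standard error 0.26, adjusted p = 0.0258), and in 2 of those 6 fits. *Il10rb*, the second chain of the IL-22 receptor, was 1 of 5 genes called in its list (0.71, standard error 0.10, adjusted p = 0.0132, in 3 of those 6 fits), whereas *Il22ra1* was not (-0.16, adjusted p = 0.874). None of *Il17rb*, *Il17rd* and *Il17re* was called in skin or small intestine by edgeR or DESeq2, and 0 of 3 passed an unadjusted p under 0.05.

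In the signalling lists, 4 of 14 genes downstream of the IL-17 receptor were called higher in skin, against 1 without control replicate 1 or without IMQ replicate 4, 5 or 6. *Nfkbiz*, which encodes the IκBζ cofactor, rose from 8.80, 13.7 and 6.37 to 42.0, 32.4 and 29.5 FPKM (log2 fold change 1.92, adjusted p = 0.0236, called in 2 of the 6 fits that left out 1 library), and *Cebpd*, a transcription factor induced by IL-17, rose by 1.83 (adjusted p = 0.00699, called in all 6). *Zc3h12a*, which encodes the ribonuclease Regnase-1 that limits IL-17 signalling, was 1 of 5 feedback inhibitors called in skin (2.76, standard error 0.24, adjusted p = 0.00321). *Socs3* (1.52, adjusted p = 0.00845) and *Stat3* (0.74, adjusted p = 0.0342) were called among 6 genes downstream of the IL-23 and IL-22 receptors, *Stat3* in 1 of those 6 fits. In the small intestine edgeR called 0 genes of these 3 lists, with 4 of 14, 1 of 5 and 0 of 6 at an unadjusted p under 0.05 and 1, 0 and 0 called by DESeq2, and without control replicate 2 the counts in skin were 4 of 14, 2 of 5 and 2 of 6.

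In the type 17 program of lymphocytes, 1 of 9 genes was called in skin and 2 in small intestine (in skin 3 without control replicate 2 and 0 without control replicate 1 or IMQ replicate 5). *Batf*, an AP-1 family factor, was called in both, by 1.68 (adjusted p = 0.0199, in 4 of 6 fits that left out 1 library) in skin and by 3.41 (adjusted p = 0.000708) in small intestine, and *Tgfb1* by 1.65 (adjusted p = 0.00480) in small intestine.

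The known target genes had large changes in skin, but these lists were chosen with earlier results of these data known. The counts below are therefore no independent evidence of IL-17 or IL-22 activity. Of 19 IL-17 target genes 11 were tested in skin and 8 called higher, their median on the log2 scale being 4.13, against 9 of 11 without control replicate 2. *S100a8* and *S100a9*, the calprotectin subunits of neutrophils and keratinocytes, rose by 10.16 and 9.46, *Cxcl5*, a neutrophil chemokine, by 7.01 and *Saa3*, an acute phase protein gene, by 6.59, and all 4 were called in each of the 6 fits that left out 1 library. Of these genes 9 were tested in small intestine and *Cxcl1* (1.91, adjusted p = 0.0437) and *Saa3* (5.02, adjusted p = 0.0275) were called. *Cxcl1* was called in none of the 5 fits that left out 1 library, and *Saa3* in 2.

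Of 11 IL-22 target genes 7 were tested in skin and 5 called higher, their median on the log2 scale being 3.99 (5 of 9 and a median of 2.69 without control replicate 2, and 3 called without IMQ replicate 5). They included the hyperproliferation keratins *Krt6b* (5.24), *Krt16* (4.63) and *Krt6a* (3.99), which were called in all 6 fits that left out 1 library. Of these genes 4 were tested in small intestine and 0 called by edgeR or DESeq2 or at an unadjusted p under 0.05, among them the antimicrobial lectin genes *Reg3b* (1.08, adjusted p = 0.586) and *Reg3g* (0.49, adjusted p = 0.815).

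In the interaction test 6 of the 56 pathway genes tested were called, 5 lower and 1 higher (10 lower and 2 higher of 57 without skin control replicate 2). Of all 18108 genes tested 2.55% were called, and 1072 of 18180 were called without skin control replicate 2. The response was lower in the small intestine for *S100a9* (-7.22), *Cxcl5* (-6.47), *Lcn2* (-4.04), *Zc3h12a* (-2.69) and *Cxcl1* (-2.21), and higher for *Batf* (1.74, adjusted p = 0.0447). The calls of *Cxcl1* and *Batf* were kept in 5 and 2 of the 11 fits that left out 1 library, and the other 4 in all 11.

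Some markers of the cells that could carry these transcripts changed alongside them, and others did not. In bulk tissue more cells of a type and more RNA per cell cannot be told apart. Of 7 γδ T cell markers, 6 were tested in skin and 3 called higher (4 higher and 1 lower without control replicate 2, and 2 higher in each of the other 5 fits that left out 1 library), namely *Blk* (5.10, adjusted p = 0.00420), the δ chain constant gene *Trdc* (2.83, adjusted p = 0.0350, in 1 of 6 fits that left out 1 library) and *Cd163l1* (2.23, adjusted p = 0.00713). *Sox13* (13.0, 3.45 and 18.7 FPKM in control and 4.43, 4.17 and 6.86 in IMQ skin, adjusted p = 0.253) and *Trdv4* (1.69, 4.81 and 1.82 in control and 1.93, 0.642 and 1.13 FPKM in IMQ skin, adjusted p = 0.310) had lower means in IMQ skin and were not called. The summed level of the 7 markers was 19.5, 20.9 and 25.7 FPKM in control skin and 35.6, 48.1 and 99.4 FPKM in IMQ replicates 4, 5 and 6, the order of *Il23r* in these libraries and with replicate 6 highest as for *Il17a*, *Il17f* and *Il22*. *Sox13*, which other cell types also express, made up most of the sum in control replicates 1 and 3. The small intestine sum was 26.0 to 32.5 in control and 25.5 and 27.1 FPKM in IMQ libraries, of which *Sox13* alone was 12.9 to 18.9 FPKM, and *Trdc* was at 3.85, 2.93 and 4.31 in control and 2.89 and 2.28 FPKM in IMQ libraries, with 0 of 5 called by edgeR or DESeq2 or at an unadjusted p under 0.05. *Trdv4* was at 0 in every small intestine library, and *Tcrg-V6* was at 0 in skin control replicate 1 and in 3 of the 5 small intestine libraries. Of 7 markers of all T cells, 0 were called in skin by edgeR with or without control replicate 2, with 3 called by DESeq2 and 3 at an unadjusted p under 0.05, and their sum was 14.96, 28.5 and 16.8 in control and 24.0, 35.6 and 66.7 FPKM in IMQ skin.

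Relative to *Trdc* in the same library, *Il23r* was at 0.0626, 0.0162 and 0.0332 in control skin and at 0.0714, 0.0788 and 0.0512 in IMQ skin. The ratio thus overlapped between the groups in skin, while *Il23r* itself did not. In small intestine the ratio was 0.0501, 0.0894 and 0.0524 in control and 0.146 and 0.129 in IMQ libraries, with no overlap. *Il17a* relative to *Trdc* was 0 in all 3 control skin libraries and 0.104, 0.0555 and 0.0970 in IMQ skin. The part of the γδ T cell markers in these results was not tested.

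**Figure D5:**
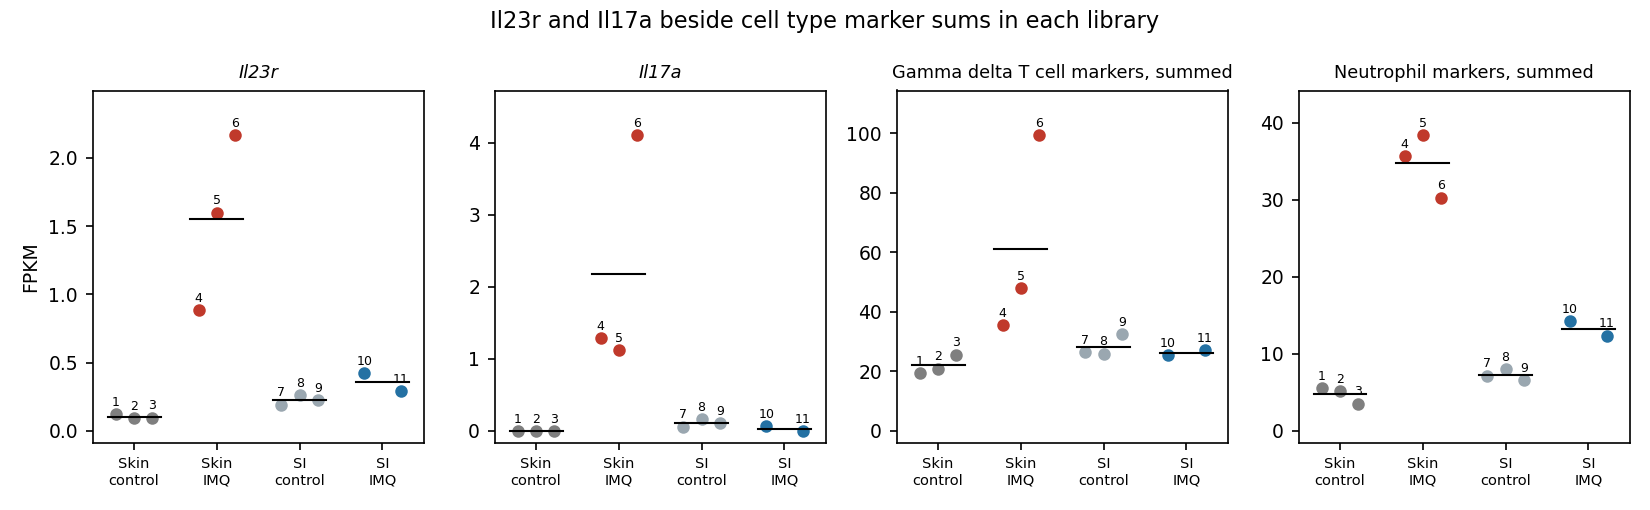
FPKM of *Il23r* and *Il17a* and the summed FPKM of 7 γδ T cell markers and 6 neutrophil markers (vertical axes, linear and separate) in each library, with points labelled by replicate number and bars at group means. In IMQ skin replicate 6 is highest for *Il23r*, *Il17a* and the γδ T cell sum (99.4 FPKM) and lowest for the neutrophil sum (30.3 FPKM).

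Of 7 markers of dendritic cells and macrophages, the main sources of IL-23, 1 was called in skin with or without control replicate 2 (*Adgre1*, 2.88, adjusted p = 0.00624) and 3 of 6 tested in small intestine (*Itgax*, *Cd68* and *Adgre1*). The sum of the 7 was 84.7 to 147 in control and 169 to 208 FPKM in IMQ skin, and 36.3 to 52.8 in control and 127 and 146 FPKM in IMQ small intestine. In skin *Adgre1* went from 5.27 to 11.4 in control to 58.7 to 71.9 FPKM, and the dendritic cell marker *Cd209a* was at 22.03, 23.0 and 12.7 in control and at 3.05, 6.74 and 8.17 FPKM in IMQ libraries (-1.65, adjusted p = 0.0537, called lower without control replicate 3). In small intestine *Csf1r*, *Flt3* and *Cd209a* (-0.94, adjusted p = 0.282) were not called. Of the neutrophil markers, 3 of 3 tested were called in skin (3 without control replicate 2, 2 without control replicate 1 or 3 or IMQ replicate 6, and 1 without IMQ replicate 4 or 5), and the sum of all 6 was 3.53 to 5.54 in control and 30.3 to 38.4 FPKM in IMQ skin. Of 6 innate lymphoid cell markers 0 were called higher and 1 lower in skin by edgeR (1 higher and 1 lower without control replicate 2), with sums of 83.8 to 86.8 in control and 55.1 to 74.2 FPKM in IMQ skin. *Gata3* and *Id2* made up most of these sums. *Gata3* was at 40.9, 34.7 and 37.0 in control and 21.1, 17.9 and 21.7 FPKM in IMQ skin. *Il7r* went the other way, from 3.45, 5.94 and 3.06 to 5.36, 9.97 and 11.1 FPKM. The sum therefore does not measure these cells alone. In small intestine 1 of the 6 was called higher, and *Klrb1b* was called in all 5 fits that left out 1 library. The part of these cells in the results was not tested.

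The genes with the pattern most like each member were found by Pearson correlation of log2(normalized count + 1) over the 11 libraries among 21401 genes, as a description of points that share tissue and treatment. The γδ T cell receptor segment *Tcrg-V4* was nearest to *Il17a* (r = 0.946), with *Trdj1* (0.938) also among the nearest 3, and *Cxcr1*, *Prss34* and *Trdv2-1* were nearest to *Il17f* (0.964 to 0.965). *Il23r* was most like *Nfkbid* (0.976), *Cxcl5* (0.972) and *Xlr4b* (0.960), and *Il23a* most like *Ldhd* (0.966), *Plau* (0.953) and *Fam162a* (0.948). For *Il12b* the values were lower, at 0.824 for *Gm36043*, 0.822 for *Tor3a* and 0.810 for *Tnf*. *Il17ra* was nearest to *Erich2* (0.957), with *LOC115487206* (0.942) also among the nearest 3, and *Il17rc* to *Sypl* (0.948), *Col4a3bp* (0.945) and *Sh2d4a* (0.940). For *Il17c* the nearest were *LOC115487793* (0.985), *Gm38930* (0.948) and *Serpinb3d* (0.937), and for *Il22* *Gm46591* (0.906), *Gm12989* (0.834) and *Gm5883* (0.829), but the counts of these members were low.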

How the data were processed

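Poly(A) RNA of 6 skin and 5 small intestine samples was sequenced as stranded libraries. Per the labels and the methods of the study, the authors converted base calls with bcl2fastq 2.20.0, trimmed reads with Trimmomatic, aligned them to mm10 with HISAT2 2.1.0 and assembled transcripts with StringTie 2.1.3b. The authors deposited raw counts, FPKM and TPM per gene. The TPM values were not used. How counting treated strand and reads that map to several places is not given in the sources used here, which bears on *Il22* and *Iltifb*.

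Deposited counts were tested with the quasi-likelihood test of edgeR 4.0.16 (R 4.3.3) after relative log expression scaling, over genes with at least 1 count in every library of the comparison, with Benjamini-Hochberg adjustment over all of them and a threshold of 0.05. Counts were brought to a common library size with the effective sizes of that scaling and are called normalized counts. Deposited FPKM values were used for levels between genes. Members at 0 in a library were tested among filterByExpr genes and with no filter, and bounds used a floor of 3 counts per library, which covers counting error only. The script was tested on simulated counts. DESeq2 1.42.0, limma 3.58.1 on log2(FPKM + 0.1) and log2(FPKM + 1), TMM scaling, 1 fit of all 11 libraries, a minimum absolute log2 fold change of 1 and each library left out were alternatives. The lists with each library left out and the fold bounds with each IMQ library left out were added after seeing the data.

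The members, gene lists and markers were chosen with earlier results of these data known. Named were the members in every library and, per list, at most the 4 called genes of largest change. *Il17b*, *Il17d*, *Il17rb*, *Il17rd*, *Il17re*, *Il12a*, *Il20*, *Il22ra1*, *Reg3b*, *Reg3g*, *Il19*, *Il24* and the marker genes that were not called were named after their values were seen. The 3 genes most like each member were chosen among genes whose normalized counts averaged 10 or more, and some genes that these rules name are not reported here. Sequences are from RefSeq (GRCm38.p6), and scripts for them ran in Python 3.11.15.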

Additional observations from a re-analysis of the deposited data

Results flagged for a closer look

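The response of *Il23r* to IMQ differed between the tissues by the test of the difference itself. The log2 response in small intestine minus that in skin was -3.19 (edgeR interaction term, adjusted p = 0.00829), from a log2 fold change of 3.89 in skin and of 0.69 in small intestine. *Il23r* was higher in all 3 IMQ skin libraries than in all 3 controls, and higher in both IMQ small intestine libraries than in the 3 controls there. *Trdc*, the γδ T cell receptor constant gene, was at 12.4, 20.3 and 42.4 FPKM in IMQ skin and 1.99, 5.72 and 2.89 in control skin, and at 2.89 and 2.28 in IMQ and 3.85, 2.93 and 4.31 FPKM in control small intestine. The ratio of *Il23r* to *Trdc* overlapped between the groups in skin. In small intestine it did not, at 0.146 and 0.129 in IMQ and 0.0501, 0.0894 and 0.0524 in control libraries. The part of γδ T cells in the difference was not tested. The gap test for a single outlying sample needs at least 4 samples in a group and was not run.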

How the results depend on the processing

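Of 254 alternative values of member log2 fold changes over 21 results, 221 kept their direction and side of the threshold, 20 lost a call, 9 gained one and 4 reversed. In skin 3 members were called, against 1 of the same tested genes with no filter on low counts and 1 to 4 with 1 library left out. In small intestine 0 were called, against 1 by DESeq2 and 0 to 1 with 1 library left out. The tissue difference was called for 1 member, against 2 by DESeq2 and 1 to 2 with 1 library left out. Among filterByExpr genes in skin, *Il17a* and *Il17f* were each called in 3 of the 6 fits that left out 1 library. Both passed that filter through the IMQ libraries alone, so no count over members is drawn from it. The reversals were all of *Il12b*, which was not called in the comparisons concerned: -0.26 in small intestine without IMQ replicate 11 (range -0.26 to 2.05), -0.27 without skin control replicate 2 and -0.69 without small intestine IMQ replicate 11 for the tissue difference (range -0.69 to 1.64), and 0.44 without skin control replicate 2 for the control tissues (range -1.12 to 0.44). The cause was not tested.

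Over all genes, DESeq2 called 3030 in skin, 1206 in small intestine and 1281 for the tissue difference, against 1382, 588 and 462 by edgeR. In skin limma on log2(FPKM + 1) called 894, and with no filter the tissue difference gave 301. With 1 library left out the counts were 258 to 2521 in skin, 294 to 801 in small intestine and 144 to 1072 for the tissue difference. No paired analysis was possible because the groups share no replicate number. Counts limited the precision for 5 members in small intestine: *Il17a*, *Il17f*, *Il17c*, *Il22* and *Il23a* had at most 11 counts in any small intestine library.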
